A study of Mus musculus with 19 samples.

Results

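Receptors of the ErbB and Met families and their ligands were followed as 10 genes in 19 mouse mammary tumours. The receptors were Egfr, Erbb2, Erbb3, Erbb4 and Met, and the ligands were Hgf, Areg, Ereg, Hbegf and Nrg1. Each gene was taken by its symbol from a table of expected counts, the read numbers that a model assigns to each gene, for 26796 genes. The default filter on low counts kept 15629 genes for testing, and 8 of the 10 genes were among them. Erbb4 and Ereg fell under it. Each library was made from poly(A) RNA of a whole tumour. The 10 27HC tumours came from mice given extracellular vesicles of neutrophils that had been exposed to 27-hydroxycholesterol (27HC), a metabolite of cholesterol. The 9 DMSO tumours came from mice given vesicles of neutrophils exposed to the solvent DMSO. All tumours were grown from Met1, a transplantable line from a mouse mammary tumour driven by the polyoma middle T oncogene. The name of the line does not refer to the receptor Met. Neutrophil vesicles were thus given in both groups, and the compound reached the neutrophils, not the mice directly. Host strain, dose and time of treatment were not given in the sources used here. Nothing in the labels ties a tumour to its own animal, so p-values measure only the spread between these samples.

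The ErbB receptors are membrane kinases that pair with each other when a ligand of the epidermal growth factor (EGF) family binds. Erbb2 binds no known ligand and is the preferred partner of the others, while Erbb3 has little kinase activity of its own and signals through its partner. Areg, Ereg and Hbegf are made as membrane-bound precursors that bind Egfr once cut free, and the neuregulin Nrg1 binds Erbb3 and Erbb4. Met is the receptor of Hgf, a growth factor that mesenchymal cells secrete as an inactive precursor. Both receptor families feed the ERK and PI3 kinase pathways, and in the mouse mammary gland Areg carries the oestrogen signal for duct growth to Egfr.

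The deposited expected counts summed to between 28139419 and 41179056 per tumour, and each library held a count or more for 18614 to 21064 genes. The libraries fell into 2 sets by GC content, taken as the GC percentage of the annotated transcripts weighted by their counts. It was 49.84 to 50.01% in 5 libraries, namely 27HC replicates 1_3, 1_5 and 2_3 and DMSO replicates 1_5 and 2_3. In the other 14 libraries, 7 from 27HC tumours and 7 from DMSO tumours, it was 51.3 to 52.8%. This split was found in the data at the widest gap and has no counterpart in the labels. It reached many genes, since 12.1% of the tested genes had a level in every low-GC library above that in all 14 others, and 11.8% had one below. The median transcript GC content was 43.5% for the genes entirely above, 55.6% for those entirely below and 50.8% for all tested genes with a value. Among the 8 tested receptors and ligands, Hgf alone lay entirely above, and none lay entirely below. Apart from this split, 2 libraries stood out by salivary gland transcripts, at a summed level of 2121 CPM for 10 markers in 27HC replicate 2_2 and 6871 CPM in DMSO replicate 1_5, where the other 17 libraries held 2.73 to 17.1 CPM. CPM are counts scaled to the normalized size of the library.

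Erbb2 and Hgf stand at opposite ends of the receptors and ligands tested in the base composition of their transcripts and in how far they differed between these libraries. The transcripts of Erbb2 averaged 57.5% GC, higher than 87.3% of the tested genes, and those of Hgf 41.2%, higher than 5.97%. The middle 120 bases of the coding sequence of the longest protein-coding transcript are shown from 5′ to 3′ for both genes, with G and C in capitals (GENCODE M21, GRCm38). The stretch of Erbb2 spans coding bases 1825 to 1944 of 3768 and holds 69 G or C, and that of Hgf spans coding bases 1033 to 1152 of 2184 and holds 54.
Erbb2: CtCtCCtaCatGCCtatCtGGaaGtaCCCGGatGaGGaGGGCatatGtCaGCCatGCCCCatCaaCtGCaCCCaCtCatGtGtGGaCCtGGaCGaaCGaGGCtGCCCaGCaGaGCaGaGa
Hgf: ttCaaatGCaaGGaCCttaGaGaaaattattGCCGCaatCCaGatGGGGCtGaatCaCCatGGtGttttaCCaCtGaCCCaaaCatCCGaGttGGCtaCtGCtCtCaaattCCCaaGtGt

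Markers of epithelial cells were low in these tumours beside most of those of a mesenchymal state. The libraries are of whole tumours, so which cells held these transcripts cannot be told. On the scale of CPM divided by the length of the longest coding transcript in kilobases (CPM per kb, mean over all tumours), Epcam reached 1.42, Cdh1, which encodes E-cadherin, 1.602 and the keratin gene Krt8 1.81. The keratin gene Krt18 was the exception at 59.4 CPM per kb. The transcription factors Snai1 and Twist1, which repress epithelial genes, reached 134 and 80.8 CPM per kb, whereas Snai2, a relative of Snai1, was at 0.790 CPM per kb, below Epcam, Cdh1 and Krt8. The other 5 genes of the mesenchymal list lay between 8.36 CPM per kb for Zeb2 and 1133 for Fn1, and the other 18 epithelial markers between 0.0258 for Ovol2 and 4.08 for Krt19. The summed level of 22 epithelial markers was 54.3 to 197 CPM in 27HC tumours and 81.6 to 168 CPM in DMSO tumours.

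Per length of transcript, the ErbB ligands Hbegf and Areg and the receptors Erbb2 and Met were the most abundant of the 10 genes. Their mean levels over all tumours were 18.5 CPM per kb for Hbegf, 13.2 for Areg, 12.8 for Erbb2 and 8.20 for Met. The ranges over tumours overlapped between each neighbouring pair, from 12.4 to 24.1 for Hbegf, 8.36 to 17.2 for Areg, 5.86 to 21.4 for Erbb2 and 4.31 to 12.9 CPM per kb for Met. Met moved to the top, at 22.2 CPM per kb, when the median length of its coding transcripts was used in place of the longest. By the longest transcript, Nrg1 followed at 2.02 CPM per kb, Egfr at 0.784, Erbb3 at 0.470 and Hgf at 0.439. The ranges of the last 3 overlapped on that scale. By the median length Nrg1 was at 4.50 CPM per kb, Egfr at 2.72, Hgf at 0.576 and Erbb3 at 0.470. Ereg, at 0.0363 CPM per kb, and Erbb4, at 0.00129, were close to the detection limit.

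None of the receptors or ligands passed the test between 27HC and DMSO tumours. In edgeR's quasi-likelihood test 0 of the 8 tested genes passed an adjusted p of 0.05, beside 0% of all 15629 tested genes (0 called). Of all tested genes 354 (201 higher with 27HC and 153 lower) had an unadjusted p under 0.05, and none of the 8 was among them. limma-voom called 0 genes and DESeq2 called 2, neither of them a receptor or ligand. Among those 2 was Bpifa2, a salivary gland marker. Of the 8 log2 fold changes 4 were above 0 and 4 below, with a median of -0.003, where all tested genes had a median of 0.01 and 53.9% above 0. The adjusted p of each of the 8 was 1.00. Without the 5 low-GC libraries 0 of 15260 genes passed (0%), and 917 had an unadjusted p under 0.05, none of the 8 among them. Without the 2 libraries of high salivary markers 0 of 15568 genes passed, and 269 had an unadjusted p under 0.05, none of the 8 among them.

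**Figure D1:**
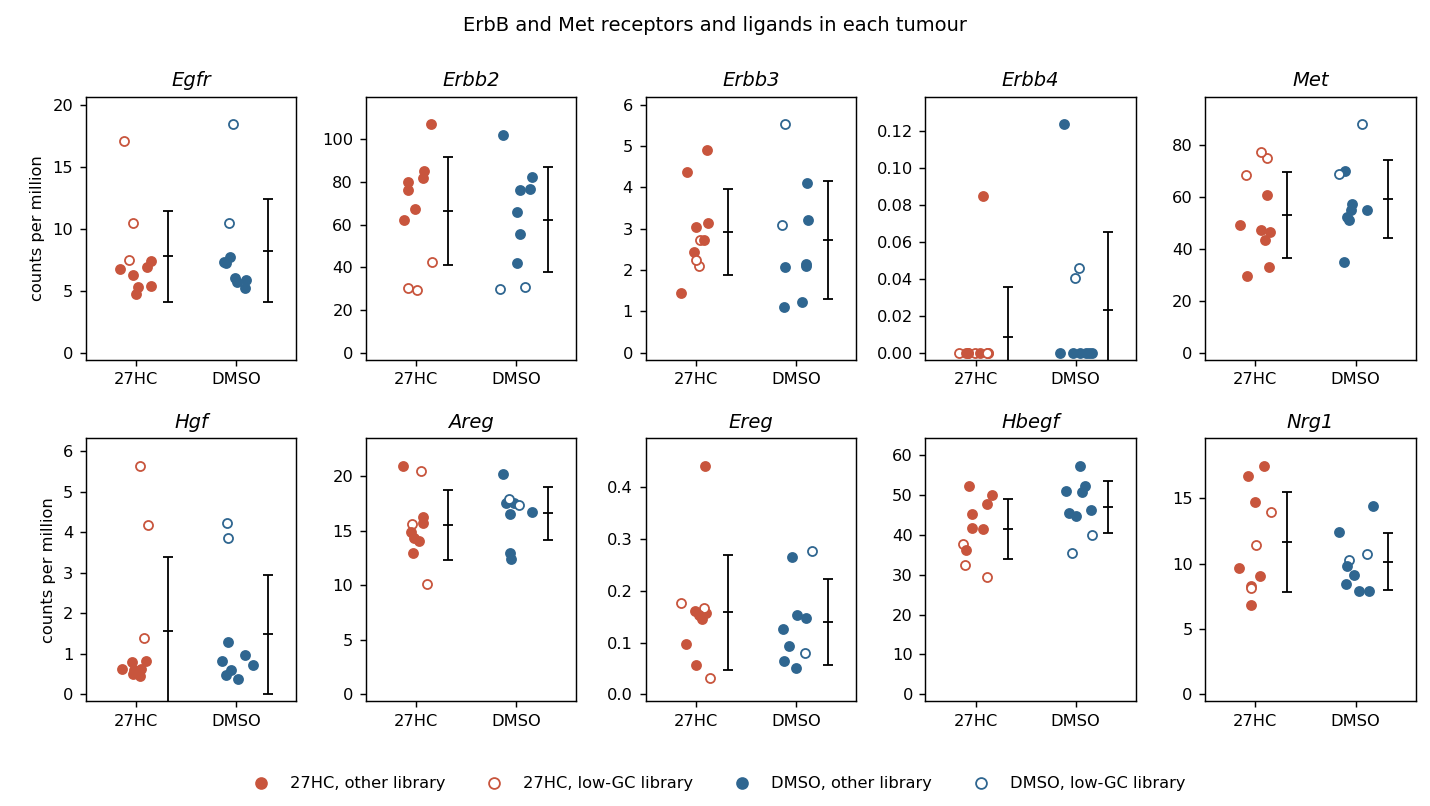
Level of each receptor and ligand in CPM (vertical axes, each starting near 0) in the 10 27HC tumours (left) and the 9 DMSO tumours (right). Each point is a tumour, open points are the 5 low-GC libraries, and bars give the mean and SD. The groups overlap for all 10 genes, and the open points lie at the top for Hgf and at the bottom for Erbb2 in both groups.

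Erbb2, the most abundant ErbB receptor in these tumours, had a similar range in both groups (chromosome 11, 98412470 to 98437716, plus strand). Its level was 29.4 CPM in the lowest, 71.8 in the median and 107 in the highest of the 27HC tumours, against 30.0, 65.9 and 102 CPM in the lowest, median and highest of the DMSO tumours. The mean was 66.2 ± 25.3 CPM (SD, n = 10) with 27HC and 62.3 ± 24.7 CPM (SD, n = 9) with DMSO. The log2 fold change was 0.09 (SE 0.26), and the 95% interval of the fold ran from 0.728 to 1.55. The lowest tumours of both groups were the low-GC libraries, at 29.4 to 42.6 CPM, where the other 14 tumours lay between 41.8 and 107 CPM.

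Egfr, which binds Areg, Ereg and Hbegf, had a narrow range outside the low-GC libraries (chromosome 11, 16752203 to 16918158, plus strand). It ranged from 4.76 CPM through a median of 6.81 to 17.1 CPM in 27HC tumours and from 5.26 through 7.27 to 18.5 CPM in DMSO tumours. The highest tumour of each group, 27HC replicate 1_3 and DMSO replicate 2_3, was a low-GC library. Egfr averaged 7.79 ± 3.65 CPM (SD, n = 10) with 27HC and 8.24 ± 4.15 CPM (SD, n = 9) with DMSO, giving -0.08 (SE 0.26) as the log2 fold change. Egfr averaged 6.12 ± 0.979 CPM (SD, n = 7) with 27HC and 6.45 ± 0.955 CPM (SD, n = 7) with DMSO in the 14 other tumours, and the interval of the fold narrowed to 0.769 to 1.18.

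Erbb3, the neuregulin receptor that depends on a partner kinase, was read at a low level in every tumour (chromosome 10, 128567523 to 128589652, minus strand). Its lowest, median and highest levels were 1.45, 2.73 and 4.90 CPM in 27HC tumours and 1.10, 2.13 and 5.53 CPM in DMSO tumours, and the DMSO median was exceeded in 8 of 10 27HC tumours. The mean was 2.91 ± 1.04 CPM (SD, n = 10) with 27HC and 2.73 ± 1.42 CPM (SD, n = 9) with DMSO, with a log2 fold change of 0.09 (SE 0.28). Leaving out the low-GC libraries gave 3.15 ± 1.16 CPM (SD, n = 7) with 27HC and 2.28 ± 1.06 CPM (SD, n = 7) with DMSO, a log2 fold change of 0.44 (SE 0.32, edgeR adjusted p = 0.796).

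Erbb4, the other neuregulin receptor, was listed at 0 in 15 tumours and had at least 1 count in 1 27HC tumour and 3 DMSO tumours (chromosome 1, 68032186 to 69108059, minus strand). The highest library held 4.02 counts of it. A count of 0 allows up to 3 counts, which corresponded to 0.0605 to 0.120 CPM across the libraries and covers counting error only. No fold is given for Erbb4.

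Met, the receptor of Hgf, was read in every tumour and its groups overlapped over most of their range. It (chromosome 6, 17463800 to 17573980, plus strand) had 29.3, 48.1 and 77.2 CPM in the lowest, median and highest 27HC tumour and 34.8, 55.0 and 87.9 CPM in the lowest, median and highest DMSO tumour. Met averaged 52.9 ± 16.7 CPM (SD, n = 10) with 27HC and 59.0 ± 14.9 CPM (SD, n = 9) with DMSO, a log2 fold change of -0.16 (SE 0.19) with an interval of the fold from 0.684 to 1.17. Met was also lower with 27HC without the low-GC libraries, at 44.1 ± 10.4 CPM (SD, n = 7) against 53.5 ± 10.3 CPM (SD, n = 7) with DMSO, and this difference did not pass the test (log2 fold change -0.28, SE 0.15, edgeR adjusted p = 0.787).

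Hgf, which activates Met, varied more than any of the other tested receptors and ligands, by 15.0 times between the highest and the lowest tumour (chromosome 5, 16553495 to 16620152, plus strand). The lowest, median and highest 27HC tumours had 0.441, 0.709 and 5.63 CPM, against 0.377, 0.833 and 4.22 CPM in the lowest, median and highest DMSO tumours. The high end of both groups was made up of the low-GC libraries, at 1.40 to 5.63 CPM, and the other 14 tumours stayed between 0.377 and 1.28 CPM. The group means were 1.56 ± 1.81 CPM (SD, n = 10) with 27HC and 1.48 ± 1.47 CPM (SD, n = 9) with DMSO. The log2 fold change of 0.08 (SE 0.58) had an interval of the fold from 0.458 to 2.42, the widest of the 8 genes. Without the low-GC libraries it turned to -0.26 (SE 0.29), and without the 2 libraries of high salivary markers it was 0.55 (SE 0.61). The counts behind Hgf were 11.3 to 237 per library.

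Over all 19 tumours, the tested ligands of Egfr had the narrowest spread of the 8 genes. Without the low-GC libraries the SD of log2 CPM was 0.17 for Hbegf, 0.22 for Egfr itself and 0.23 for Areg. Areg (chromosome 5, 91139599 to 91148432, plus strand) had 10.2, 15.3 and 20.9 CPM in the lowest, median and highest 27HC tumour and 12.4, 17.4 and 20.2 CPM in the lowest, median and highest DMSO tumour. Its log2 fold change was -0.09 (SE 0.13), and the interval of the fold ran from 0.775 to 1.13. Hbegf, which also binds Erbb4 (chromosome 18, 36504927 to 36515805, minus strand), had 29.4, 41.5 and 52.2 CPM in the lowest, median and highest 27HC tumour and 35.5, 46.2 and 57.3 CPM in the lowest, median and highest DMSO tumour. It averaged 41.4 ± 7.52 CPM (SD, n = 10) with 27HC and 47.0 ± 6.62 CPM (SD, n = 9) with DMSO, and the DMSO median was exceeded in 3 of 10 27HC tumours. Hbegf had the smallest unadjusted p of the 8 genes, 0.139 in edgeR's test, with a log2 fold change of -0.18 (SE 0.12) and an interval of the fold from 0.742 to 1.05. Ereg lies beside Areg on chromosome 5 (91074622 to 91093646, plus strand) and held 1.01 to 13.1 counts per library. It averaged 0.159 ± 0.111 CPM (SD, n = 10) with 27HC and 0.140 ± 0.0824 CPM (SD, n = 9) with DMSO, and no fold is given at this depth.

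Nrg1, the ligand of Erbb3 and Erbb4, had the highest log2 fold change of the 8 genes (chromosome 8, 31814551 to 32884029, minus strand). Its lowest, median and highest levels were 6.85, 10.5 and 17.5 CPM in 27HC tumours and 7.93, 9.80 and 14.4 CPM in DMSO tumours. It averaged 11.6 ± 3.82 CPM (SD, n = 10) with 27HC and 10.1 ± 2.18 CPM (SD, n = 9) with DMSO, a log2 fold change of 0.20 (SE 0.18) with an interval of the fold from 0.878 to 1.497. The titles carry a first number, 1 or 2, with no stated meaning. The test of whether the difference depended on this number called 0 of 15629 genes (0%). Nrg1 had the smallest unadjusted p of the 8 genes in it, 0.0716, with an edgeR adjusted p of 0.911. The difference in its log2 fold change between number 2 and number 1 was 0.57 (SE 0.30).

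**Figure D2:**
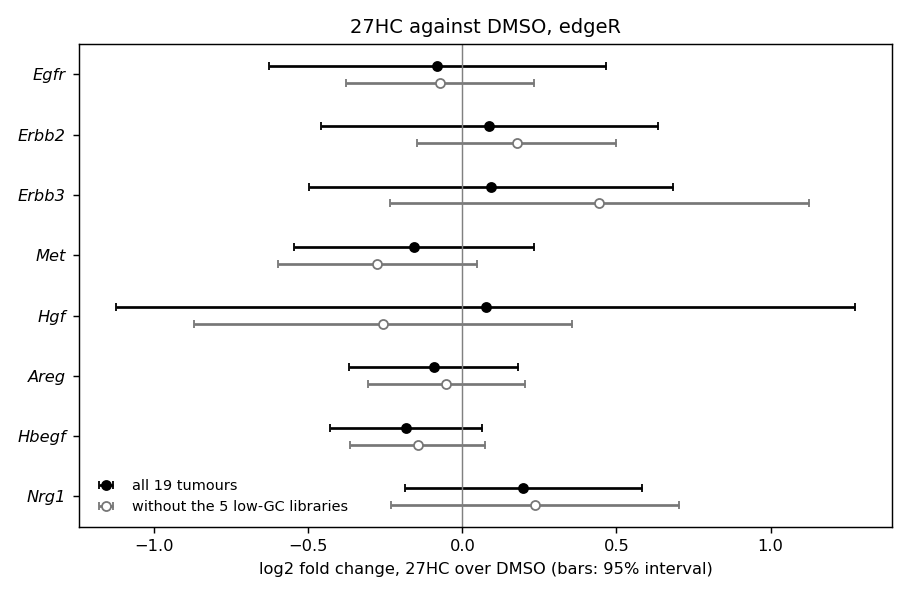
Log2 fold change of 27HC over DMSO with its 95% interval (horizontal axis) for the 8 tested receptors and ligands, from edgeR. Filled points are all 19 tumours, open points the 14 tumours without the low-GC libraries. All intervals include 0, and that of Hgf is the widest in the fit of all tumours.

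The spread of Hgf, Erbb2 and Egfr among tumours lay largely between the low-GC libraries and the others. Met kept most of its spread within the 14 other tumours, with an SD of log2 CPM of 0.35 against 0.43 over all tumours. The mean log2 level in the 5 low-GC libraries minus that in the 14 others was 2.32 for Hgf, 0.95 for Egfr, 0.66 for Met, -0.43 for Hbegf and -1.19 for Erbb2. Erbb3, Areg and Nrg1 differed by 0.24, 0.01 and 0.04. No test is given for sets that were defined from the data. After each library was corrected for transcript GC content, the differences were 1.21 for Hgf, 0.88 for Egfr, 0.30 for Met, -0.17 for Hbegf and -0.49 for Erbb2. Egfr kept most of its difference under the correction, and its transcripts have a GC content of 50.1%, close to the median of all tested genes. The correction moves genes near that median little, and the origin of the kept difference was not tested. Low-GC and other libraries occur in both groups, and what separated them was not tested. The level of a gene in a whole tumour cannot tell fewer cells of a type from less RNA per cell.

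**Figure D3:**
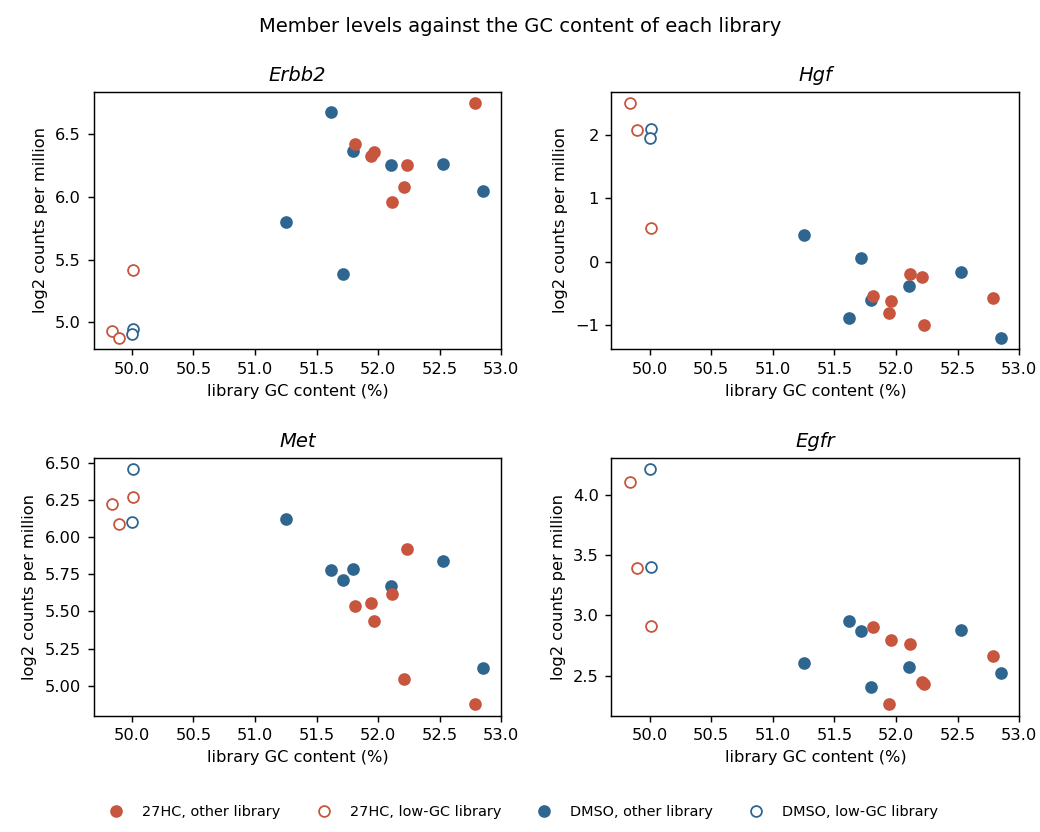
Log2 CPM of Erbb2, Hgf, Met and Egfr (vertical axes) against the GC content of each library in percent (horizontal axes), with 1 point per tumour. The 5 low-GC libraries (open points) sit at 49.84 to 50.01% GC, apart from the other 14, with low Erbb2 and high Hgf in both groups.

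Because these libraries form a cluster of their own, the receptors and ligands were set against each other in the 14 other tumours. Of 28 pairs 0 passed a Benjamini-Hochberg adjusted p of 0.05 over the pairs, by permutation tests, and 3 pairs had an unadjusted p under 0.05. Erbb3 and Areg moved in opposite directions with r = -0.73 (permutation p = 0.00311, adjusted 0.0871) and rho = -0.66 (permutation p = 0.0116, adjusted 0.325). The r of this pair was -0.66 without the 2 tumours farthest from the median, -0.84 in the 27HC tumours and -0.67 in the DMSO tumours. It was -0.88 for first title number 1 and -0.13 for number 2, so it did not hold in both. Erbb2 and Hgf had r = -0.57 (permutation p = 0.032, adjusted 0.316), and Erbb3 and Met had r = -0.56 (permutation p = 0.0339, adjusted 0.316). Met and its ligand Hgf had r = 0.34 (permutation p = 0.239, adjusted 0.669), and Erbb3 and its ligand Nrg1 r = 0.20 (permutation p = 0.486, adjusted 0.778).

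Erbb3 was higher in tumours with more of the epithelial markers, a relation that did not pass the adjusted threshold and was weaker without the 2 libraries of high salivary gland markers. An epithelial score was formed per tumour as the mean z-score of the 19 tested markers of the list, none of them a receptor or ligand described here. Over the 19 tumours Erbb3 had r = 0.63 with this score (permutation p = 0.0035, adjusted over all genes 0.408) and rho = 0.64 (permutation p = 0.00391, adjusted 0.373). The 2 tumours of highest Erbb3, DMSO replicate 1_5 at 5.53 CPM and 27HC replicate 2_2 at 4.90 CPM, are the 2 libraries of high salivary markers, and their epithelial scores were 0.94 and 1.51. With the score formed anew in the other 17 tumours, r was 0.48 for Erbb3 (permutation p = 0.0526, adjusted 0.126) and 0.55 for Erbb2 (permutation p = 0.0232, adjusted 0.0791). It was 0.59 for Hbegf (permutation p = 0.0121, adjusted 0.0576) and -0.54 for Hgf (permutation p = 0.0254, adjusted 0.083). Met passed there, at r = -0.71 (permutation p = 0.00152, adjusted 0.0402), and the share of all genes that passed is not given. Of these 17, 4 are low-GC libraries. With the correction for transcript GC content over all 19 tumours, the r of Met was -0.23 (permutation p = 0.344). Over the 13 tumours in neither set, with the score of all tumours, r was 0.72 for Erbb3, 0.21 for Erbb2 and -0.61 for Met. There Hbegf had -0.23 and Hgf -0.28. The part of salivary tissue in these relations was not tested. The r of Erbb3 was 0.59 without the 2 tumours farthest from the median score, 27HC replicates 2_2 and 1_5. It was 0.79 within the 27HC tumours and 0.72 within the DMSO tumours, and 0.53 and 0.85 within first title numbers 1 and 2. In the 14 tumours without the low-GC libraries the r of Erbb3 was 0.76 (permutation p = 0.00104, adjusted 0.388). In edgeR's fit with treatment as a term, the slope of Erbb3 was 0.57 log2 units per unit of score (SE 0.16, adjusted p = 0.293), and 0.77 (SE 0.22, adjusted p = 0.571) in the 14 tumours. That fit called 30 of 15610 genes (0.192%), 28 rising and 2 falling with the score, and 14 of 15241 genes (0.0919%) in the 14 tumours, with 0 of the 8 receptors and ligands in either. Without the 2 libraries of high salivary markers it called 204 genes, again with 0 of the 8.

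Single markers were set against Erbb3 as well. Of the 19 epithelial markers 16 had an r above 0 with it, over all 19 tumours and also over the 14, with a median r of 0.53 and 0.61. Epcam, the epithelial adhesion molecule, had r = 0.84, Marveld3, a protein of tight junctions, 0.82 and Cdh1 0.77 over the 19 tumours. Over the 17 tumours without high salivary markers these were 0.76, 0.73 and 0.71, and the median over the markers was 0.36, with 16 above 0. Krt18, a keratin of simple epithelia, went the other way with r = -0.35 over the 19 tumours, -0.59 over the 14 and -0.40 over the 17. Cldn3 and Elf3 were also below 0, at -0.13 and -0.06 over the 19 tumours. These are descriptions across genes that share the same tumours, and markers are not independent of each other. Erbb3 also marks Schwann cells, and its r with the score of that list was 0.04 over the 19 tumours (permutation p = 0.872). It differed in sign between sets of tumours, at 0.42 in 27HC and -0.30 in DMSO tumours and -0.17 and 0.50 within first title numbers 1 and 2, and was 0.35 without the 2 tumours farthest from the median. Whether Schwann cells contributed was not tested. The summed level of the 8 Schwann cell markers was 18.5 to 37.5 CPM in 27HC tumours and 21.9 to 43.1 CPM in DMSO tumours.

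**Figure D4:**
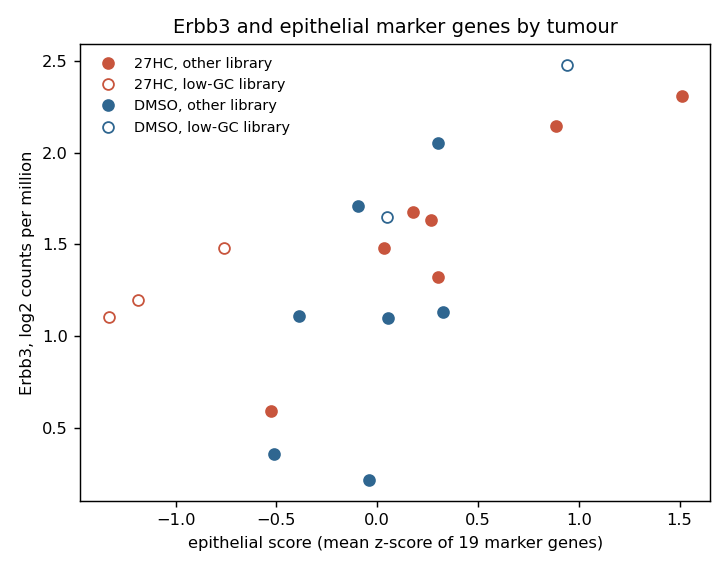
Erbb3 in log2 CPM (vertical axis) against the epithelial score, the mean z-score of 19 marker genes (horizontal axis), with 1 point per tumour. Erbb3 is higher in tumours of higher score (r = 0.63 over 19 tumours), and the 3 open 27HC points, which have the lowest scores, are low-GC libraries.

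Erbb2 and Egfr had no such relation, or had one that depended on the tumours used. Met had a negative r in most sets of tumours. Over all 19 tumours the r of Met was -0.45 (permutation p = 0.053, adjusted 0.408). It was -0.73 in the 27HC and 0.20 in the DMSO tumours, and -0.25 and -0.71 within first title numbers 1 and 2. Over the 17 tumours without high salivary markers, with the score of all tumours, it was -0.81 in 27HC and -0.53 in DMSO tumours. Over the 14 tumours r with the epithelial score was 0.23 for Erbb2 (permutation p = 0.411), -0.21 for Egfr (permutation p = 0.487) and -0.50 for Met (permutation p = 0.0652). Over all 19 tumours Erbb2 had r = 0.78 in the 27HC tumours, where the 3 low-GC libraries have both the lowest scores and the lowest Erbb2, and r = -0.49 in the DMSO tumours. This difference between groups was not tested. The epithelial score itself averaged -0.06 ± 0.90 (SD, n = 10) with 27HC and 0.07 ± 0.43 (SD, n = 9) with DMSO, and the exact permutation p, two-sided over 92378 regroupings, was 0.697. Without the low-GC libraries the difference turned to 0.52, at 0.26 ± 0.78 (SD, n = 7) with 27HC and -0.26 ± 0.38 (SD, n = 7) with DMSO (exact permutation p = 0.14).

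Nrg1 had its highest r with the fibroblast markers. Its r with the fibroblast score was 0.60 over the 19 tumours (permutation p = 0.00722, adjusted over all genes 0.415), with rho = 0.63 (permutation p = 0.00482, adjusted 0.788). It was 0.52 without the 2 tumours farthest from the median, 0.63 within first title number 1 and 0.10 within number 2, so it was not seen in both. Hgf, a product of mesenchymal cells, had r = 0.40 with the same score over the 14 tumours (permutation p = 0.158), with 0.60 within number 1 and -0.30 within number 2. Of the 48 relations of the 8 genes with 6 cell type scores, 0 passed an adjusted p of 0.05 over all 19 tumours, and 2 had an unadjusted permutation p under 0.05. Over the 14 tumours 0 passed as well, and 4 had an unadjusted p under 0.05, namely Erbb3 and Hbegf with the epithelial score, Nrg1 with the fibroblast score and Egfr with the endothelial score. Egfr with the endothelial score had r = 0.69 and rho = 0.69 in the 14 tumours (permutation p = 0.00769 and 0.008, adjusted p of r over all genes 1.00), with r = 0.62 in the 27HC and 0.73 in the DMSO tumours, 0.57 and 0.81 within first title numbers 1 and 2, and 0.60 without the 2 tumours farthest from the median. Over all 19 tumours it was 0.21 (permutation p = 0.377, adjusted 1.00). Hbegf with the epithelial score had r = -0.58 in the 14 tumours (permutation p = 0.0329, adjusted 0.730), which turned to 0.08 without the 2 farthest tumours and so rests on them.

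The genes whose levels were most like each receptor or ligand were ranked by r of log2 CPM over the 19 tumours, among 11909 genes of at least 1 log2 CPM. Erbb3 was nearest to Epcam (0.84), Cdh1 (0.77) and Ralgps1 (0.76). Nrg1 was nearest to Crim1 (0.85), Tgfb2 (0.80) and Zfp36l1 (0.80), and Areg to Pdhb (0.83), Pomp (0.76) and Sec11c (0.76). Each of these kept an r of at least 0.80 over the 14 tumours, to 2 decimals. For Erbb2 the nearest were Csk, Caskin2 and Atp13a1 (0.99, 0.99 and 0.98), for Hgf Hnrnph1, Kctd12 and Supt20 (0.98, 0.97 and 0.97), for Met Rbl1, Dhrs9 and Fmnl2 (0.95, 0.94 and 0.94), and for Egfr Tfpi, Fry and Vmn2r114 (0.91, 0.90 and 0.88). Those 4 lists include the difference between the low-GC and the other libraries. Over the 14 tumours the r of Egfr with Tfpi was 0.63 and that with Fry 0.50, whereas that of Met with Dhrs9 was 0.94 and that of Erbb2 with Caskin2 0.95. Hbegf was nearest to Prep (0.85), Dusp5 (0.83) and Sec23b (0.83), at 0.75, 0.61 and 0.65 over the 14 tumours. Ranked over the 14 tumours instead, Erbb3 was nearest to Tmppe (0.89), Serping1 (0.89) and Adamts15 (0.86), with Epcam at 0.82 and Cdh1 at 0.80. Nrg1 was then nearest to Mtss1 (0.91), while Areg stayed nearest to Pdhb (0.89).

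Nor did any gene of the rest of the pathway pass between 27HC and DMSO tumours, with 0 genes called in each of its 6 lists by edgeR. Of 7 other EGF family ligands 6 were tested, with fold changes above 0 for 4 and below 0 for 2 and a median of 0.10 (log2). Nrg2, a neuregulin, was read at 22.1 ± 6.25 CPM (SD, n = 10) with 27HC and 19.9 ± 4.78 CPM (SD, n = 9) with DMSO, and Btc, betacellulin, was at -0.34 (log2 fold change, SE 0.26). Of 8 genes that cut ligands free or regulate the cutting, such as Adam17 and the rhomboid-like regulators Rhbdf1 and Rhbdf2, 7 were above 0 and 1 below, with a median of 0.07. Adam17, which releases Areg and Hbegf, was the one below, at -0.09 (SE 0.17).

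In the list of HGF activation, which holds proteases, their inhibitors, Met co-receptors and the Met relative Ron (Mst1r), 5 of 11 genes were above 0 and 6 below, with a median of -0.04. Plau and Plat, the plasminogen activators urokinase and tissue type, had the smallest p of the list. Plau averaged 25.8 ± 4.29 CPM (SD, n = 10) with 27HC and 36.6 ± 9.57 CPM (SD, n = 9) with DMSO, a log2 fold change of -0.51 (SE 0.15), and Plat 17.7 ± 3.14 CPM (SD, n = 10) with 27HC and 22.3 ± 4.37 CPM (SD, n = 9) with DMSO, a log2 fold change of -0.34 (SE 0.13). Their unadjusted p in edgeR's test were 0.00225 and 0.0200, and the adjusted p was 1.00 for both. Without the low-GC libraries the log2 fold changes were -0.56 and -0.33.

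Of 29 adaptors and kinases downstream of the receptors 17 were above 0 and 12 below, with a median of 0.03. Of 13 inhibitors of the receptors 6 were above 0 and 7 below, with a median of -0.005. Socs5, which marks Egfr for degradation, had the smallest p of these (log2 fold change -0.23, SE 0.10, unadjusted p = 0.0327, edgeR adjusted p = 1.00). Of 16 genes that ERK signalling induces 8 were above 0 and 8 below, with a median of -0.02. Dusp6, the phosphatase that shuts ERK off, was at -0.05 (SE 0.10), and Ccnd1, cyclin D1, at -0.13 (SE 0.16). Fos averaged 10.7 ± 1.68 CPM (SD, n = 10) with 27HC and 16.4 ± 18.3 CPM (SD, n = 9) with DMSO, with a log2 fold change of -0.62 (SE 0.36), and its highest tumour reached 64.2 CPM.

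**Figure D5:**
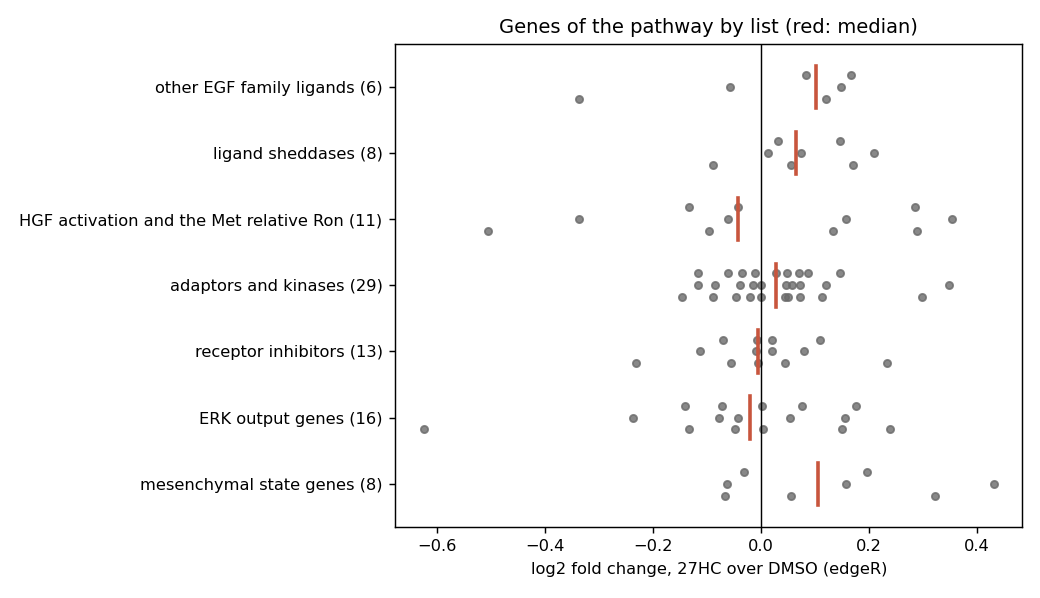
Log2 fold change of 27HC over DMSO (horizontal axis) for each tested gene of 7 lists, with the number of genes in brackets and the median as a red bar. No gene passed the adjusted threshold, and the medians lie between -0.04 and 0.11.

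Markers of other cell types gave the following log2 fold changes of 27HC over DMSO. No gene of their lists passed the adjusted threshold in edgeR's test, while DESeq2 called the salivary gland marker Bpifa2. All 12 skeletal muscle markers were above 0 with 27HC, with a median log2 fold change of 1.98, and all 12 were below 0 without the low-GC libraries, with a median of -0.89. Their summed level ran from 5.40 to 4259 CPM in 27HC tumours and from 6.06 to 1516 CPM in DMSO tumours. All 10 macrophage markers were below 0, with a median of -0.17, and of 12 fibroblast markers 8 were above 0 (median 0.07). Of 10 T and NK cell markers 9 were below 0, with a median of -0.26, and 10 were below 0 without the low-GC libraries, with a median of -0.47. Of the 19 epithelial markers 13 were above 0 (median 0.14), and 18 were above 0 (median 0.71) without the low-GC libraries. Of 6 neutrophil markers tested 3 were above 0 (median 0.27), of 6 endothelial markers 2 (median -0.06), of 5 basal epithelial markers 2 (median -0.01), of 7 Schwann cell markers 2 (median -0.03) and of 5 fat cell markers 1 (median -0.17). Of the 3 salivary gland markers tested 1 was above 0 and 2 below, all at an unadjusted p under 0.05, and each of them reached its highest level in one of the 2 libraries of high salivary markers. The part that the makeup of the tumours has in the levels of the receptors and ligands was not tested, beyond fits with the epithelial or the muscle score as a covariate, in which 0 of the 8 were called.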

How the data were processed

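RNA of 19 whole tumours (10 27HC, 9 DMSO) was sequenced as stranded, paired-end poly(A) libraries, per the labels' protocols. The deposited table holds expected counts per gene. Named in the submitters' processing notes are the quantifier kallisto (0.44.0), the packages limma and edgeR and the build GRCm38, without their roles, and how transcripts were summed to genes is not given in the sources used here. Columns were matched to samples by title, and groups come from the treatment label.

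Expected counts, as deposited by the authors, were rounded to whole numbers, filtered with filterByExpr, normalized by TMM and tested with edgeR 4.0.16 (R 4.3.3), with Benjamini-Hochberg adjustment over all tested genes and a threshold of 0.05. Alternatives used limma 3.58.1 (voom), DESeq2 1.42.0, other filters and scalings, covariates, the title numbers and leaving out each tumour. Levels are CPM scaled by the normalized library size. Correlations and scores used log2 CPM with a prior count of 2, with 100000 resamples. Adjustment was over all genes tested for each score, and over 28 pairs for the pairs. Coordinates, transcript lengths, GC content and coding sequences came from GENCODE M21 on GRCm38.

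The split by library GC content and everything computed without the 5 low-GC libraries, with a loess correction for transcript GC (span 0.3) or with library GC as a covariate, or without the 2 libraries of high salivary gland markers (above the widest gap in their summed log2 level), was chosen after seeing the data. The 10 genes and all gene lists were chosen with earlier results of these data known. All 10 genes are named. From each list up to 3 tested genes with the smallest unadjusted p could be named, and 4 epithelial markers whatever their values. Adam17, Dusp6, Ccnd1, Nrg3 and Mst1r were named for their roles, and Marveld3, Cldn3, Elf3, Zeb2, Fn1, Ovol2 and Krt19 for their values, outside this rule. The nearest genes were the 3 of highest r, without predicted genes. Fits and correlations were tested on simulated data, and no library was a copy of another (lowest chi-square between tumours of a group 42.1 per degree of freedom). The 27HC and DMSO tumours share 9 title numbers. The deviations of tumours with the same number correlated between -0.43 and 0.78, with 5 of 9 over 0.1, so the numbers were not taken to pair them.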

Additional observations from a re-analysis of the deposited data

Results flagged for a closer look

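In 22 checks of a single tumour against the rest of its group, 5 tumours stood far from the others. Chance gives about 1 in 20 where values are normally distributed. That rate does not hold for Erbb4 and Ereg, whose values rest on a few counts, so the 5 tumours are not set against it. With Erbb4 at 0 in all other 27HC tumours, the 1 tumour with counts was bound to stand out. Egfr was high in 27HC replicate 1_3, at 17.1 CPM, where the next 27HC tumour had 10.5 CPM, and in DMSO replicate 2_3, at 18.5 CPM, where the next DMSO tumour had 10.5 CPM. Both are low-GC libraries. Without 27HC replicate 1_3 the log2 fold change of Egfr was -0.33, and without DMSO replicate 2_3 it was 0.16. Ereg reached 0.442 CPM in 27HC replicate 1_1, where the next 27HC tumour had 0.176 CPM. Erbb4 was at 0.0850 CPM in 27HC replicate 2_2, where the other 27HC tumours were listed at 0, and at 0.124 CPM in DMSO replicate 1_4, where the next DMSO tumour had 0.0460 CPM. The values of Ereg and Erbb4 rest on a few counts per library. What set these tumours apart was not tested.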

How the results depend on the processing

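In the comparison of 27HC with DMSO, 0 receptors or ligands were called under all 15 alternatives run and without each of the 19 tumours. The count of genes called was 0 in these too, apart from DESeq2 with 2. Fold changes near 0 changed sign. That of Hgf was -0.033 with limma-voom, -0.095 with the full title number as a replicate block, -0.40 with first title number 2 alone, -0.40 with the epithelial score and -0.53 with the muscle score as covariate, -0.26 without the low-GC libraries, -0.014 with the GC correction and -0.067 with library GC as covariate. Without the 2 libraries of high salivary gland markers Erbb2 was at -0.050. With first title number 1 alone the log2 fold changes were 0.30 for Egfr, -0.20 for Erbb2, -0.27 for Erbb3, 0.0033 for Met, 0.037 for Areg and -0.12 for Nrg1. Leaving out each tumour gave Egfr a value of -0.33 where 27HC replicate 1_3 was left out and 0.16 where DMSO replicate 2_3 was, -0.014 to 0.20 for Erbb2, -0.022 to 0.25 for Erbb3 and -0.45 to 0.45 for Hgf, the lowest leaving out 27HC replicate 1_3 and the highest leaving out DMSO replicate 1_5.

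The epithelial score differed by 0.36 with number 2 alone, by 0.52 without the low-GC libraries and by -0.32 to 0.010 without each tumour in turn, the highest without 27HC replicate 1_5. The genes called on the slope with the score numbered 109 with no filter, 5 with a filter at 1 log2 CPM, 49 without the treatment term, 9 with a score of 4 genes, 0 with the replicate block, 14 without the low-GC libraries 17 with the GC correction and 204 without the 2 libraries of high salivary markers. Leaving out each tumour gave 3 (without 27HC replicate 2_2) to 33 (without DMSO replicate 1_5). No receptor or ligand was called on this slope in any of these fits.

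Slopes that changed sign were, with the replicate block, 0.11 for Egfr, -0.028 for Hbegf and -0.020 for Nrg1. For Nrg1 it was -0.072 without the 2 libraries of high salivary markers. For Hbegf it was -0.079 without the low-GC libraries and -0.015 with the GC correction. With library GC as covariate they were 0.11 for Egfr, -0.083 for Erbb2, 0.21 for Hgf and -0.085 for Hbegf. Without single tumours they ran from -0.024 to 0.14 for Hbegf and from -0.022 to 0.11 for Nrg1. The r with the epithelial score changed sign to 0.12 for Hgf and -0.071 for Hbegf with the GC correction, -0.57 for Hbegf without the low-GC libraries, 0.45 for Areg with number 2 alone, and -0.015 and -0.051 for Nrg1 with number 1 and number 2 alone, and -0.098 for Nrg1 without the 2 libraries of high salivary markers, where the r of Met, -0.71, passed (adjusted p = 0.0402). It ran from -0.44 to 0.065 for Areg and from -0.088 to 0.20 for Nrg1 without single tumours. The causes of these changes were not tested. The slope and the r of Erbb3 kept their sign in all of these settings, from 0.51 to 0.65 and from 0.57 to 0.71 without single tumours. With the GC correction the r of Erbb3 was 0.76 (permutation p = 0.00023, adjusted 0.116). That of Erbb2 was then 0.03, that of Egfr -8.9e-05 and that of Met -0.23. The replicate block changed no call of a receptor or ligand, and 2 27HC tumours correlated best with the DMSO tumour of their own number. At 11.3 to 237 counts, Hgf is the least precisely measured of the 8 tested receptors and ligands, and Ereg and Erbb4 could not be compared at this depth.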

Other observations

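Over all 19 tumours 8 of the 28 pairs of receptors and ligands passed an adjusted p of 0.05 by permutation tests. All 8 lay among Egfr, Erbb2, Met, Hgf and Hbegf, whose levels differed between the low-GC and the other libraries. Erbb2 and Hgf had r = -0.91, Egfr and Hgf 0.86, and Egfr and Erbb2 -0.76. After the correction for transcript GC content 4 pairs passed, against 0 in the 14 tumours without the low-GC libraries. Fewer tumours also make it harder to pass. The share of all gene pairs that passed is not given, so these counts are not set against a background. The neuregulin receptor Erbb4 and the neuregulin Nrg3 were both near the detection limit, with Nrg3 between 0 and 0.141 CPM. Neuregulins 1 and 2 were read in every tumour, Nrg2 at 11.9 to 32.1 CPM and Nrg1 at 6.85 to 17.5 CPM. The Met relative Ron, encoded by Mst1r, was read at 0.185 to 2.49 CPM and its ligand Mst1 at 0.585 to 1.76 CPM.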
